A study of Oncorhynchus mykiss with 14 samples.

Results

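Mature adipocytes of intramuscular fat (IMAT) were set against mature adipocytes of visceral fat (VAT) from adult rainbow trout, by their microRNAs (miRNAs) other than those of muscle. The comparison used 9 of the 14 small RNA libraries of the study, 5 from IMAT (IMAT 1 to 5) and 4 from VAT (VAT 1, 3, 4 and 5). The other 5 libraries came from subcutaneous fat (SAT) and serve below only in an alternative fit and as levels set beside those of these depots. Fish of both groups were untreated, were kept in fresh water at 15 °C with 12 h of light a day on a commercial diet, and were fasted for 24 h before sampling. After dissection, collagenase type II and mechanical treatment freed the adipocytes, whose total RNA was extracted with TRIzol. The sources used here name no strain, sex or exact age, and they do not say whether each library of a depot stands for its own fish. The p-values therefore rest on library-to-library spread, which may be technical.

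The table of read counts lists 899 entries, 256 named after Atlantic salmon miRNAs (prefix ssa) and 643 predicted miRNAs with no such name. The 10 entries whose names begin as those of miR-1, miR-133, miR-206 and miR-499 do were taken out before any total was formed. Of the 889 entries left, 761 were above 0 in at least 1 of the 9 libraries and 285 in at least 4. Entries with identical counts were read as one miRNA, which left 248 to test, 185 of them named. The opening letters of miR-133 also fit miR-1338-5p, which is not a muscle miRNA. It was removed with the others, and where it was kept its level was 35.1 ± 8.78 in IMAT and 35.1 ± 23.7 in VAT (scaled counts as defined below, SD, n = 5 and 4).

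A miRNA is a short RNA that, loaded into an Argonaute protein, pairs with messenger RNAs and lowers their translation or stability. In mammals, miRNAs such as miR-204, miR-210 and miR-30 favour the making of fat cells and others such as miR-27 and miR-130 restrain it, while miRNAs encoded within the Hox clusters mark position along the body axis. Adipocytes of different depots in mammals keep distinct programmes of positional and inflammatory genes, and the miRNAs that go with these are the ones followed here.

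The libraries labelled IMAT mature adipocytes were rich in muscle miRNAs. The removed entries held 65.5 to 89.6% of all counts in IMAT, against 0.0904 to 4.65% in VAT. No single miRNA defines adipocytes. Of miRNAs that are abundant in mammalian adipocytes (miR-26, miR-30, miR-103, miR-107, miR-143, miR-148 and miR-152) 16 entries were tested. Several of them, such as those of miR-30c and miR-30d, carry near-equal counts and cannot be added as separate miRNAs, and the highest entry of each of these 7 miRNAs gave a sum of 62894 to 83261 CPM in IMAT, against 48552 to 71938 CPM in VAT. In the sums of other lists, entries with near-identical counts are counted once. Taking out the muscle miRNAs by name leaves in place any other miRNA that muscle supplied, and the part of muscle RNA in the differences below was not tested. In such bulk samples fewer cells of a type and less RNA per cell cannot be told apart.

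After the removal the libraries kept 585491, 447550, 383800, 153699 and 3983987 counts in IMAT 1 to 5, against 5260435, 4249541, 6453215 and 10927038 in VAT 1, 3, 4 and 5. IMAT was thus the shallower depot in all 5 libraries, and in 4 of them by far. Levels below are CPM, counts brought to one common library total, computed on these remaining counts and scaled by the trimmed mean of M-values (TMM), with factors of 1.013 to 1.51 in IMAT and 0.651 to 0.939 in VAT. On the first principal component of the log2 levels, which held 32.8% of the variance, all 5 IMAT libraries lay on one side of all 4 VAT libraries. IMAT 3 lay nearest to VAT, at -1.64, against -24.3 to -10.6 in the other IMAT libraries and 12.9 to 19.2 in VAT. On the same levels IMAT 3 correlated with VAT 1 and VAT 3 (r = 0.894 and 0.895) about as highly as with IMAT 2 (0.894).

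Within the depots, IMAT 5 and VAT 4, a pair picked after the data were seen, stood apart from the other libraries on many entries. Over all 248 entries tested, on log2(CPM + 1), IMAT 5 was not alone. It correlated with the other IMAT libraries at r = 0.836 to 0.849, and IMAT 4 at 0.837 to 0.863. VAT 4 gave 0.829 to 0.849, against 0.890 to 0.934 among the other VAT libraries. Of 131 entries above 0 in all 9 libraries, 76 lay outside the range of the other libraries of the depot in both IMAT 5 and VAT 4. Some would do so by chance, since some library is always the highest or lowest, and other pairs were not counted. These 76 moved the same way in 61 cases, with both libraries high for 36 entries and both low for 25, and moved opposite ways in 15. Across the 131 entries the deviations of IMAT 5 and VAT 4 from their depots correlated with r = 0.54, and over all 20 pairs of an IMAT and a VAT library r ran from -0.56 to 0.57, so this pair was not alone. Over all 248 entries tested, on log2(CPM + 1), r of IMAT 5 and VAT 4 was 0.20, and all pairs ran from -0.25 to 0.36. The entries share libraries, scaling and depth, and r is a description only.

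**Figure D1:**
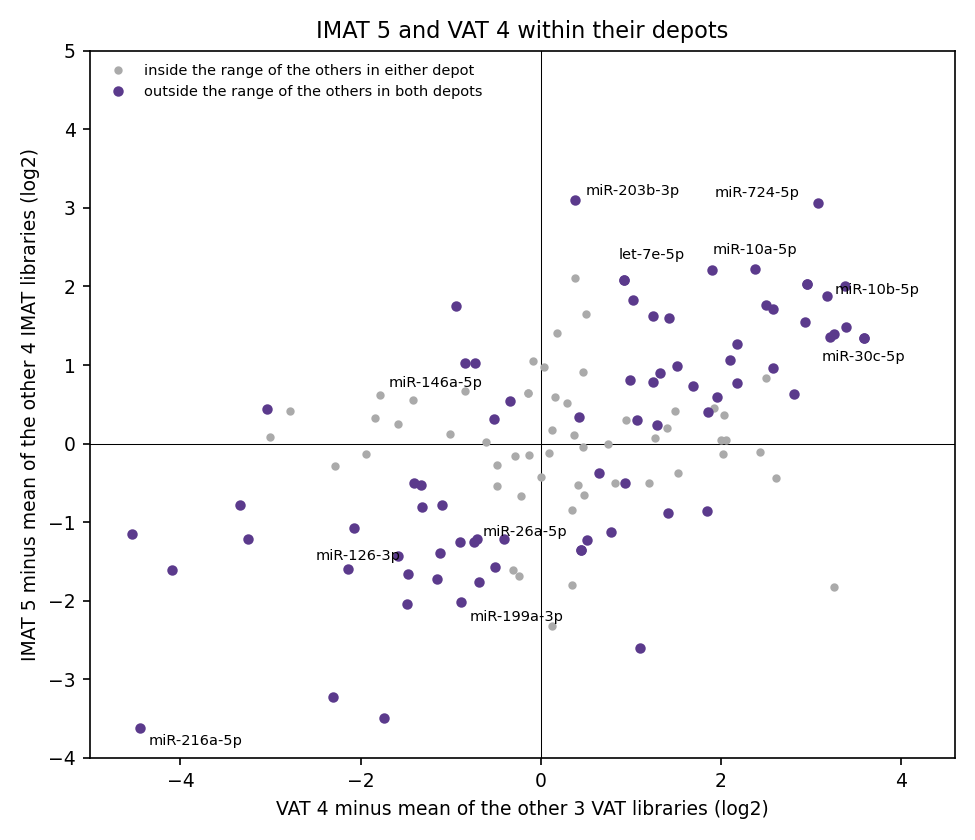
Each point is 1 of the 131 miRNA entries above 0 in all 9 libraries. The x axis gives VAT 4 minus the mean of the other 3 VAT libraries and the y axis IMAT 5 minus the mean of the other 4 IMAT libraries, both as log2 differences. Purple marks the 76 entries outside the range of the other libraries in both depots, most of which lie in the upper right (36) or lower left (25).

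The miRNAs on which these libraries stood apart included abundant ones. miR-10b-5p, encoded in a Hox cluster, stood at 122740.0 CPM in IMAT 5 against 28949 to 43243 CPM in the other IMAT libraries, and 47763 CPM in VAT 4 against 4271 to 6664 CPM in the other VAT libraries. let-7e-5p, of the let-7 family that grows more abundant as cells mature, stood at 86304 CPM in IMAT 5 against 14863 to 22102 CPM in the other IMAT libraries, and 172622 CPM in VAT 4 against 29749 to 67591 CPM in the other VAT libraries. Both libraries were high for both of these miRNAs. miR-126-3p, a miRNA of blood vessel endothelium, went the other way, at 18885 CPM in IMAT 5 against 37728 to 60479 CPM in the other IMAT libraries, and 19532 CPM in VAT 4 against 23333 to 66873 CPM in the other VAT libraries. Also high in both libraries were miR-10a, miR-10d, let-7d, miR-25, miR-30c, miR-30d, miR-100a, miR-214, miR-375 and miR-724, and also low in both were miR-26a, miR-27d, miR-103, miR-199a and miR-216a. IMAT 5 held the smallest share of muscle miRNAs of its depot and VAT 4 the smallest of all 9 libraries. What sets these libraries apart was not tested. Calls and counts are given below with and without them.

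The composition of the remaining miRNAs differed between the depots. The 10 most abundant miRNAs of each library took 70.1, 67.9, 69.6, 70.1 and 75.1% in IMAT 1 to 5, against 84.7, 82.3, 73.2 and 86.2% in VAT 1, 3, 4 and 5. The means were 70.6 ± 2.72% in IMAT and 81.6 ± 5.82% in VAT (SD, n = 5 and 4), a lower share in IMAT (exact permutation p = 0.032, adjusted p = 0.048 over the 3 tests of this kind, two-sided, smallest possible p = 0.016). VAT 4, at 73.2%, lay within the range of IMAT. At a common depth of 153699 reads, that of the shallowest library, the expected number of entries above 0 was 185, 199.3, 202, 174 and 215.5 in IMAT 1 to 5, against 213.7, 226, 229 and 229.5 in VAT 1, 3, 4 and 5. The means were 195 ± 15.97 in IMAT and 224 ± 7.37 in VAT (SD, n = 5 and 4), again lower in IMAT (exact permutation p = 0.032, adjusted p = 0.048 over the 3 tests of this kind, two-sided, smallest possible p = 0.016). IMAT 5, the deepest of its depot, lay above VAT 1. Entries with near-identical counts are counted separately here, and an entry listed at 0 beyond counting error counts as absent. Both differences passed without IMAT 5, and neither passed without IMAT 1, 2, 3 or 4 or VAT 1, 3, 4 or 5 (adjusted p = 0.071 to 0.11). The smallest possible permutation p, before adjustment, was then 0.029 without an IMAT library and 0.036 without a VAT library. Detection sat at this floor without IMAT 4 or VAT 1, and the share of the 10 most abundant without VAT 4. These losses therefore cannot tell instability from the smaller number of libraries. With the muscle entries kept, the share of the 10 most abundant was 6.69 percentage points higher in IMAT.

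**Figure D2:**
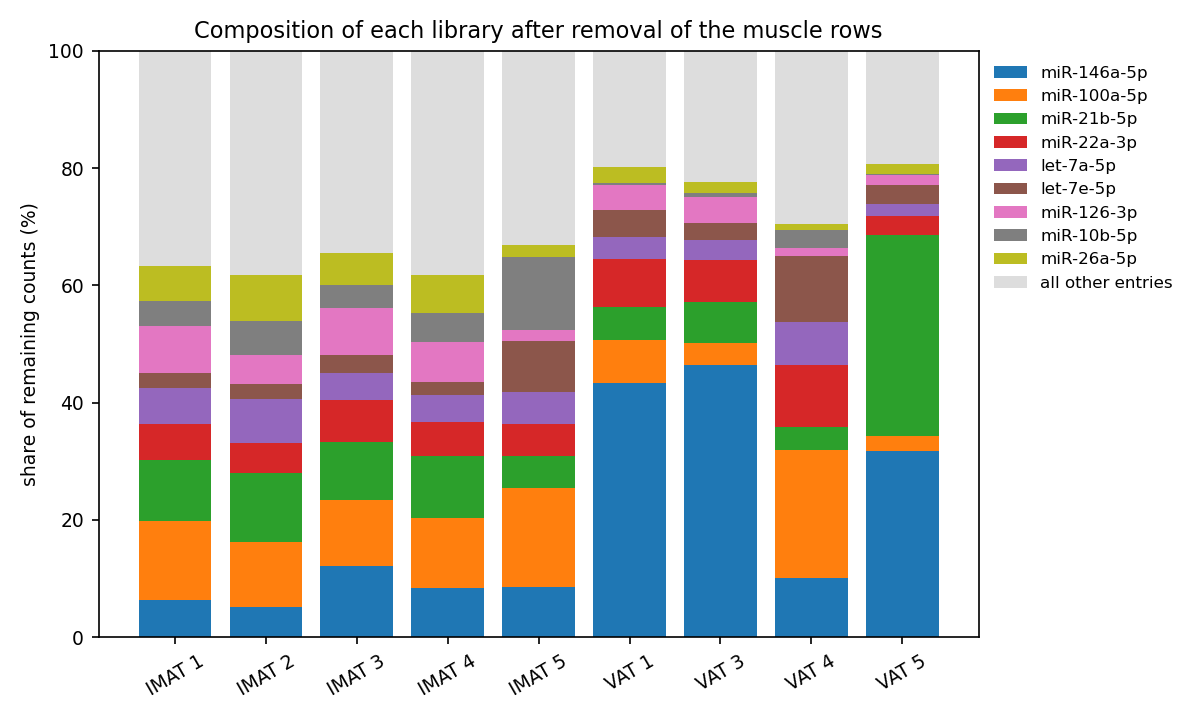
Shares of each library's remaining counts (percent, stacked bars from 0) for 9 abundant miRNAs and all other entries together, IMAT 1 to 5 on the left and VAT 1, 3, 4 and 5 on the right. miR-146a-5p takes 5.15 to 12.1% of the bars in IMAT and 10.2 to 46.4% in VAT.

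Predicted entries, those without a miRBase-style name, took a share of the remaining counts of 1.52 ± 0.182% in IMAT and 1.20 ± 0.219% in VAT (SD, n = 5 and 4). The difference did not pass (exact permutation p = 0.063, adjusted p = 0.063 over the 3 tests of this kind, two-sided, smallest possible p = 0.016), and its sign depended on the removal: with the muscle entries in the totals the share was 0.364% in IMAT and 1.18% in VAT.

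Of the 248 entries tested, 18 were called (7.26%) by the quasi-likelihood test of edgeR at an adjusted p under 0.05. Of these, 11 were higher in IMAT (4.44% of those tested) and 7 were lower (2.82%). Among named miRNAs 16 were called (8.65%), 10 higher and 6 lower, and among predicted entries 2 (3.17%). The levels of the depots did not overlap for any of the 18, against 38 (15.3%) of all entries tested. For 2 of the 7 lower entries, miR-135a-5p and NovelmiRNA-333, all IMAT libraries are listed at 0. They passed the filter only through VAT, so their lack of overlap was fixed in advance. miR-196a-5p and NovelmiRNA-91, listed at 0 in VAT 1 and VAT 4, passed it only through IMAT, where they are high. In plain shares of the remaining counts 15 of the 18 did not overlap, against 16.9% of all entries, and miR-146a-5p, miR-365-3p and miR-458-3p did. The median log2 fold change of all entries was -0.60 with TMM, so values are to be read against it: it was -0.64 with median-ratio scaling and 0.22 with library totals alone. All 18 kept their direction in every alternative in which they were tested (24, or 23 for miR-196a-5p and miR-734-5p), library totals included, but the balance moved: 16 of the 18 calls (88.9%) were higher with library totals, 61.1% were higher in the fit reported here, and DESeq2 called 38, of which 42.1% were higher.

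**Figure D3:**
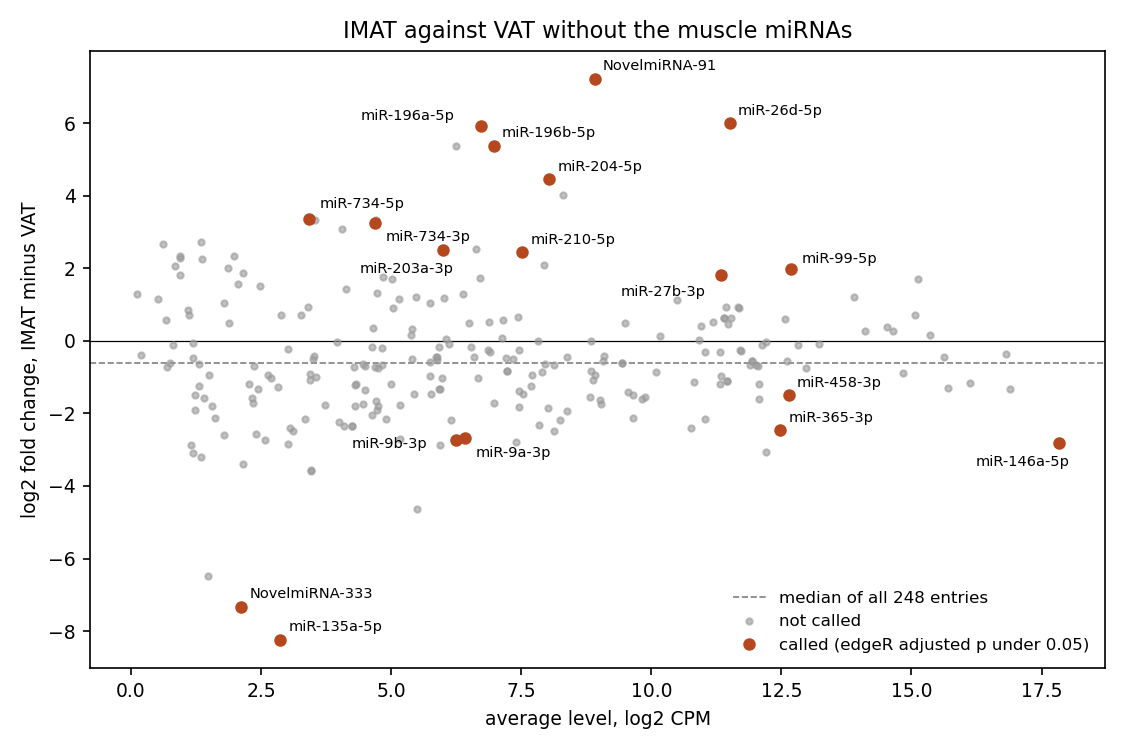
Each point is 1 of the 248 entries tested, with the average level (log2 CPM) on the x axis and the log2 fold change, IMAT minus VAT, on the y axis. Red points are the 18 called entries and the dashed line is the median of all entries, -0.60. The fitted values of miR-135a-5p and NovelmiRNA-333, at the bottom, stand for entries listed at 0 in every IMAT library and depend on the prior count.

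How many entries were called depended on single libraries. It was 9, 9, 10, 8 and 25 without IMAT 1, 2, 3, 4 or 5, and 7, 8, 29 and 10 without VAT 1, 3, 4 or 5. The 6 that were called in all 9 of these fits were miR-26d-5p, miR-196b-5p, miR-204-5p, miR-734-3p, miR-99-5p and miR-146a-5p. Without both IMAT 5 and VAT 4, an alternative chosen after seeing the data, 46 entries were called (18.5%), 27 higher (10.9%) and 19 lower (7.66%), and these included all 18. The 46 also hold entries of near-equal counts, and predicted entries that within a depot were above 0 only in the library left out. The log2 fold changes of the 6 there were 6.71 for miR-26d-5p, 5.40 for miR-196b-5p, 4.02 for miR-204-5p, 3.26 for miR-734-3p, 2.24 for miR-99-5p and -3.23 for miR-146a-5p.

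**Figure D4:**
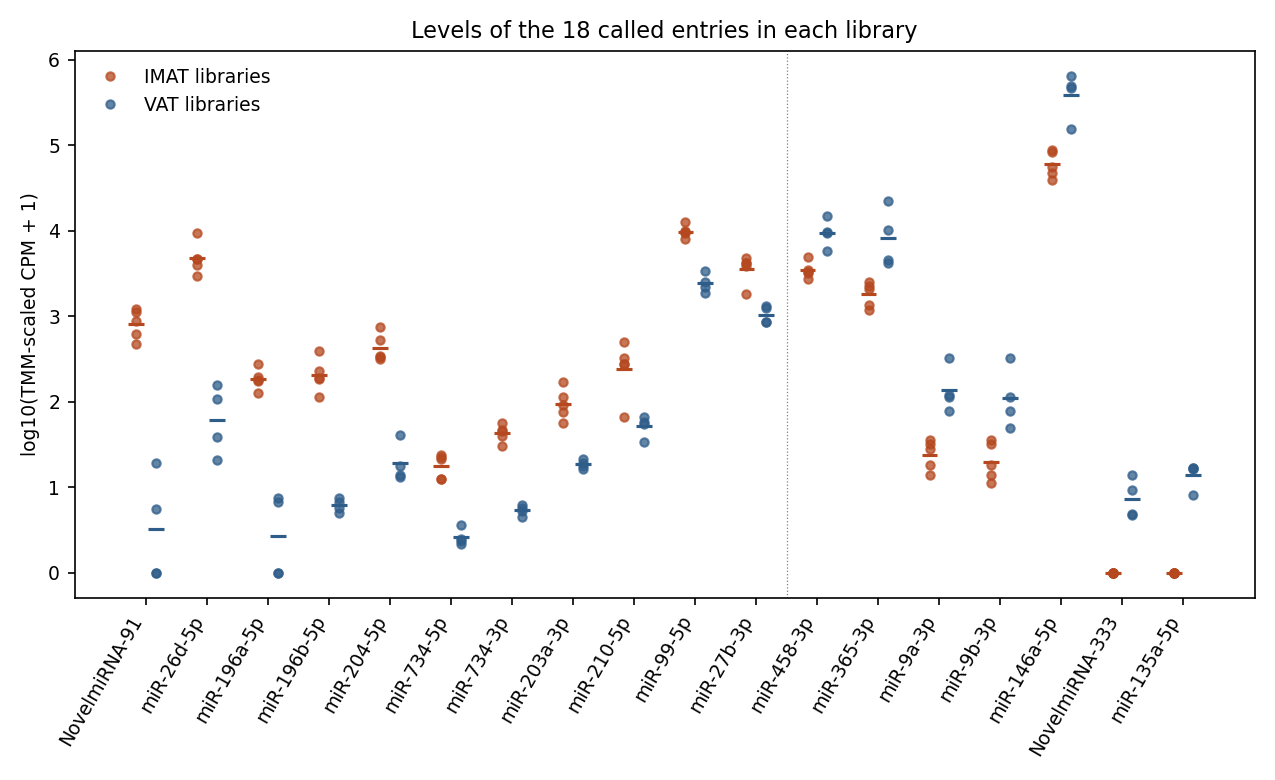
Levels, as log10(TMM-scaled CPM + 1), of the 18 called entries in each library, with IMAT (red) left of VAT (blue) for each entry, every point 1 library and the bar the mean of its points. The 11 entries higher in IMAT stand left of the dotted line and the 7 lower ones right of it, and the depots do not overlap for any of them.

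Of the miRNAs of the Hox clusters, both forms of miR-196 rose. miR-196, encoded between the posterior Hox genes, represses Hox messenger RNAs, and in mammals miR-196a also promotes the browning of fat through Hoxc8. miR-196b-5p stood at 231, 391, 182.5, 112 and 187 CPM in IMAT 1 to 5, against 5.74, 6.51, 4.76 and 3.97 CPM in VAT 1, 3, 4 and 5. All IMAT libraries were far above all VAT libraries, and the log2 fold change was 5.39 ± 0.62 (SE, adjusted p = 0.0014). miR-196a-5p stood at 194.1, 275, 173, 124.7 and 177 CPM in IMAT 1 to 5, against 0, 5.76, 0 and 6.43 CPM in VAT 1, 3, 4 and 5. It rose by a log2 fold change of 5.92 ± 1.47 (SE, adjusted p = 0.038) with VAT 1 and VAT 4 listed at 0. These zeros lie beyond counting error given the level in the other VAT libraries, so the size of the change is uncertain. miR-196a-5p passed the filter on low values only through IMAT, where it is high, so its call is no separate support for a difference. Its call was lost without IMAT 1, 2, 3 or 4 or VAT 1, 3 or 5 (adjusted p = 0.056 to 0.081).

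The miR-10 members of the same clusters, which lie next to more anterior Hox genes, were not called. miR-10b-5p stood at 31131, 43243, 28949, 32309 and 122740.0 CPM in IMAT 1 to 5, against 5159, 6664, 47763 and 4271 CPM in VAT 1, 3, 4 and 5, a log2 fold change of 1.69 ± 0.84 (SE, adjusted p = 0.29). VAT 4 lay above 4 of the 5 IMAT libraries. miR-10d-5p gave 1.21 ± 0.88 (adjusted p = 0.42) and miR-10a-5p -0.08 ± 0.74 (adjusted p = 0.95). Of the 5 Hox-cluster entries tested, 2 were thus higher and 3 were not called (7.26% of all entries were called), with a median log2 fold change of 1.69 against -0.60 over all entries. Of the 2, miR-196a-5p passed the filter only through IMAT. Without IMAT 5 and VAT 4, miR-10b-5p was called at 2.66 ± 0.26 (adjusted p = 0.0019) and miR-10d-5p at 2.28 ± 0.24 (adjusted p = 0.0019).

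miR-26d-5p showed the largest difference among abundant miRNAs. It is a divergent member of the miR-26 family, whose other members are abundant in mammalian fat cells and favour their differentiation. miR-26d-5p stood at 3931, 9485, 4724, 4742 and 2974 CPM in IMAT 1 to 5, against 37.3, 106.5, 158 and 19.7 CPM in VAT 1, 3, 4 and 5. The lowest IMAT library was well over 10 times the highest VAT library, the log2 fold change was 6.01 ± 0.81 (SE, adjusted p = 0.0027), and the call held in all 24 alternatives. Its relatives gave no call: miR-26a-5p ran from 19565 to 60321 CPM in IMAT, against 16409 to 38983 CPM in VAT (log2 fold change 0.71 ± 0.41, adjusted p = 0.30), and miR-26b-5p gave 0.13 ± 0.44 (adjusted p = 0.85).

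miR-204-5p, which in mammals favours fat over bone formation by repressing Runx2, stood at 331, 342, 315, 533 and 757 CPM in IMAT 1 to 5, against 16.9, 40.3, 12.1 and 12.99 CPM in VAT 1, 3, 4 and 5. It rose by 4.46 ± 0.64 (SE, adjusted p = 0.0032) on the log2 scale, with IMAT 5 highest and every IMAT library above every VAT library. miR-210-5p, the 1 entry of the hypoxia list, is an arm of the main hypoxia-induced miRNA, whose other arm favours fat cell formation in mammals. It stood at 323, 494, 275, 279 and 65.9 CPM in IMAT 1 to 5, against 64.6, 33.1, 54.5 and 57.6 CPM in VAT 1, 3, 4 and 5. IMAT 5 lay just above VAT 1, the log2 fold change was 2.45 ± 0.62 (SE, adjusted p = 0.040), and the call was lost without IMAT 1, 2, 3 or 4 or VAT 1, 3 or 5 (adjusted p = 0.070 to 0.11). Of the 17 entries tested from miRNAs that promote fat cell formation, these 2 were higher and none was lower (4.44% and 2.82% of all entries were), with a median log2 fold change of -0.57. Members with no call included miR-21, miR-30, miR-103, miR-143 and miR-148.

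miR-27b-3p, which restrains fat cell formation in mammals by repressing PPARγ, was also higher in IMAT. It stood at 4241, 4818, 4169, 3848 and 1826 CPM in IMAT 1 to 5, against 1325, 1252, 846 and 855 CPM in VAT 1, 3, 4 and 5. The groups did not overlap although IMAT 5 was low, the log2 fold change was 1.82 ± 0.41 (SE, adjusted p = 0.029), and the call was lost without IMAT 1, 2, 3 or 4 or VAT 1, 3 or 5 (adjusted p = 0.056 to 0.080). It was the only call, in either direction, among 20 entries of miRNAs that restrain fat cell formation, against 7.26% of all entries, and the median of the list was -0.42. Its relative miR-27c-3p stood at 992 to 1342 CPM in IMAT, against 1388 to 4598 CPM in VAT, with no overlap but no call (log2 fold change -1.13 ± 0.41, adjusted p = 0.16).

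miR-99-5p, of a family that restrains growth signalling through mTOR in mammals, was the most abundant miRNA called higher. It stood at 12594, 9586, 9925, 9476 and 7978 CPM in IMAT 1 to 5, against 2505, 1878, 3428 and 2198 CPM in VAT 1, 3, 4 and 5. Every IMAT library lay above every VAT library, and the log2 fold change was 1.99 ± 0.34 (SE, adjusted p = 0.0086). The other 4 entries of the list of miR-99, miR-100 and miR-125 were not called, so that 1 of 5 was, against 7.26% of all entries. miR-100a-5p, the most abundant of them, stood at 100781, 82989.5, 83167, 78711 and 167144 CPM in IMAT 1 to 5, against 109218, 39828, 334164 and 39655 CPM in VAT 1, 3, 4 and 5, a log2 fold change of -0.35 ± 0.63 (SE, adjusted p = 0.74) whose sign turned with library totals alone (0.55), without VAT 4 (0.78) and without IMAT 5 and VAT 4 (0.46).

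Of the miRNAs of skin and other epithelia, 1 of 9 entries was called, against 7.26% of all entries. miR-203a-3p, which drives keratinocytes out of the cell cycle, stood at 75.3, 91.0, 55.7, 112 and 169 CPM in IMAT 1 to 5, against 20.4, 18.04, 16.7 and 15.2 CPM in VAT 1, 3, 4 and 5. No library overlapped, the log2 fold change was 2.52 ± 0.54 (SE, adjusted p = 0.025), and the call was lost without IMAT 2 or 4 or VAT 1, 3 or 5 (adjusted p = 0.058 to 0.068). None of the other 8 entries was called. miR-205b-5p and miR-203b-3p had no overlap and values of 3.33 ± 0.93 (adjusted p = 0.062) and 3.34 ± 1.00 (adjusted p = 0.086), while miR-205a-5p gave -1.47 ± 0.74 (adjusted p = 0.30). The epithelial list summed to 180.3 to 607 CPM in IMAT, against 324 to 627 CPM in VAT, with a median log2 fold change of -0.84.

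Both arms of miR-734, a miRNA known from fishes, were higher in IMAT at a low level. miR-734-3p stood at 29.4, 38.7, 44.2, 55.9 and 46.3 CPM in IMAT 1 to 5, against 3.45, 5.26, 4.76 and 4.24 CPM in VAT 1, 3, 4 and 5 (log2 fold change 3.26 ± 0.57, adjusted p = 0.0086), and miR-734-5p at 11.5, 20.2, 11.5, 21.5 and 23.0 CPM in IMAT 1 to 5, against 2.58, 1.503, 1.19 and 1.37 CPM in VAT 1, 3, 4 and 5 (log2 fold change 3.37 ± 0.68, adjusted p = 0.021). All IMAT libraries lay above all VAT libraries for each arm. These levels rest on few reads. The 3p arm had 23, 23, 23, 13 and 187 reads in IMAT 1 to 5, against 12, 21, 20 and 31 in VAT 1, 3, 4 and 5. The 5p arm had 9, 12, 6, 5 and 93, against 9, 6, 5 and 10. Outside IMAT 5 the reads were alike in the depots, and the levels differ through the smaller totals of IMAT. The call of the 5p arm was lost without IMAT 2 or VAT 3 or 5 (adjusted p = 0.052 to 0.060). Among 16 fish-enriched entries 3 were called, against 7.26% of all entries: these 2 and miR-458-3p, which was lower.

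Within IMAT the called miRNAs did not follow one order of libraries. Of the 10 named miRNAs called higher, 5 were highest in IMAT 2 (miR-26d-5p, miR-27b-3p, miR-196a-5p, miR-196b-5p and miR-210-5p), which held the largest share of muscle miRNAs, 89.6%. Another 3 were highest in IMAT 5 (miR-203a-3p, miR-204-5p and miR-734-5p), which held the smallest, 65.5%. IMAT 5 was lowest for 4 (miR-26d-5p, miR-27b-3p, miR-99-5p and miR-210-5p). miR-26d-5p, miR-27b-3p and miR-210-5p were thus highest in the library with the largest muscle share and lowest in that with the smallest. Whether levels follow the muscle share was not tested. All 10 were higher in IMAT when the muscle entries stayed in the totals: of all calls, 16 were made both with and without those entries, 2 lower ones only after the removal and 1 higher one only before it, and the removal shifted log2 fold changes by a median of -0.17.

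miR-146a-5p, a brake on NF-κB signalling that inflammatory signals induce, had the highest mean level of all miRNAs in VAT and fell in IMAT. It stood at 47684, 38857, 88923, 55289 and 84020.4 CPM in IMAT 1 to 5, against 655563, 493796, 155897 and 473617 CPM in VAT 1, 3, 4 and 5. In shares of the remaining counts these were 6.38, 5.15, 12.1, 8.37 and 8.51% in IMAT 1 to 5, against 43.4, 46.4, 10.2 and 31.7% in VAT 1, 3, 4 and 5. VAT 4 was the lowest VAT library in both measures, and in plain shares it lay below IMAT 3. The log2 fold change was -2.82 ± 0.46 (SE, adjusted p = 0.0069). It was -3.23 to -2.02 over the alternatives, with a call in all of them but the replicate block.

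The other miRNAs linked to inflammation did not pass. miR-146d-5p stood at 389 to 991 CPM in IMAT, against 379 to 8431 CPM in VAT (log2 fold change -2.39 ± 0.77, adjusted p = 0.12), and without IMAT 5 and VAT 4 it was called at -2.76 ± 0.68 (adjusted p = 0.033). miR-21b-5p, an abundant miRNA induced in injury and fibrosis, stood at 77045, 88906, 73579.9, 70427 and 53576 CPM in IMAT 1 to 5, against 86325, 73987, 59245 and 511789 CPM in VAT 1, 3, 4 and 5. VAT 5 alone was high, and the log2 fold change was -1.33 ± 0.63 (SE, adjusted p = 0.27). Of the 9 entries of this list 1 was lower and none higher (2.82% and 4.44% of all entries were), with a median of -1.33. The list summed to 147836 to 187619 CPM in IMAT, against 245885 to 1073765 CPM in VAT, where TMM scaling lets a sum pass the common total. The 3 tested entries of white blood cells (miR-142b, miR-150 and miR-155) had no call, against 7.26% of all entries. Their median was -1.79, and they summed to 263 to 496 CPM in IMAT, against 391 to 1702 CPM in VAT.

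miR-365-3p, which in mice accompanies miR-193b in brown fat, stood at 2242, 1196, 2090.3, 1367 and 2503 CPM in IMAT 1 to 5, against 10359.9, 4551, 22579 and 4159.8 CPM in VAT 1, 3, 4 and 5. It fell in IMAT by 2.47 ± 0.56 on the log2 scale (SE, adjusted p = 0.029), with no overlap in scaled levels but with overlap in plain shares. VAT 1 and VAT 4 were high and VAT 3 and VAT 5 nearer to IMAT. The call was lost without IMAT 1, 2, 3 or 4 or VAT 1 (adjusted p = 0.056 to 0.077). Another entry, miR-365-2-3p, had the same counts except in IMAT 4, IMAT 5 and VAT 3, where it was listed at 0. The 2 entries thus share reads, and miR-365-2-3p was not called. Of the 14 entries of miRNAs known from brown and beige fat, 2 were higher (both miR-196) and 1 was lower (miR-365-3p), against 4.44% and 2.82% of all entries, so that the called members moved in opposite directions, and the median was -0.56. Of the 2 higher, miR-196a-5p passed the filter only through IMAT. miR-193 gave 1.22 ± 0.74 (adjusted p = 0.34) and miR-455 0.07 ± 0.44 (adjusted p = 0.93), both with no call.

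miR-458-3p stood at 3171, 3477, 4966, 3272 and 2728 CPM in IMAT 1 to 5, against 14901, 9606, 9408 and 5786 CPM in VAT 1, 3, 4 and 5. It is conserved in fishes and birds and was lower in IMAT by the smallest called difference, a log2 fold change of -1.49 ± 0.37 (SE, adjusted p = 0.038). Against the median of all entries, -0.60, the difference is smaller still. The groups did not overlap in scaled levels, but the call was lost without IMAT 1, 2, 3 or 4 or VAT 1 or 3 (adjusted p = 0.056 to 0.16).

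The miR-9 entries, a family of nervous tissue, were lower in IMAT. miR-9a-3p stood at 12.8, 26.96, 30.7, 17.2 and 35.2 CPM in IMAT 1 to 5, against 111, 118, 327 and 77.4 CPM in VAT 1, 3, 4 and 5 (log2 fold change -2.67 ± 0.61, adjusted p = 0.029). VAT 4 was high, and the other 3 VAT libraries also lay above every IMAT library. miR-9b-3p had the same counts as miR-9a-3p in 7 of the 9 libraries, so both entries share reads and are one observation, and it gave -2.72 ± 0.72 (adjusted p = 0.049). miR-9a-5p, the other arm, stood at 0 to 19.2 CPM in IMAT, against 58.04 to 126.3 CPM in VAT, with no call (log2 fold change -4.64 ± 1.59, adjusted p = 0.13). Of its zeros in IMAT, only that of IMAT 5 lies beyond counting error. The call of miR-9a-3p was lost without IMAT 1, 2, 3 or 4 or VAT 1 or 3 (adjusted p = 0.056 to 0.077), and that of miR-9b-3p without IMAT 1, 2, 3 or 4 or VAT 1, 3, 4 or 5 (adjusted p = 0.060 to 0.12). Of 16 entries of neurons and sensory cells these 2, which are 1 observation, were the calls, against 7.26% of all entries. The median was 0.63, or 0.23 with near-identical entries counted once, above 0 where the calls lie below it. The miR-128 entries of this list also carry near-equal counts, and the highest entry of each of its 8 miRNAs gave a sum of 1727 to 6080.3 CPM in IMAT, against 1865 to 3292 CPM in VAT.

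miR-135a-5p, named here after its values were seen, was listed at 0 in all 5 IMAT libraries and stood at 15.8, 15.8, 7.14 and 15.2 CPM in VAT 1, 3, 4 and 5. VAT held 30 to 111 reads of it a library. Against a floor of 3 reads over the IMAT libraries together it was at least 28.0-fold lower in IMAT (adjusted p = 0.022), and the call was lost without VAT 1, 3 or 5 (adjusted p = 0.060). miR-135a-5p passed the filter on low values only through VAT, where it is high, so its call is no separate support for a difference. The floor reflects counting alone, because PCR copies of one molecule are counted as separate reads. It pools the IMAT libraries and rests mainly on IMAT 5, which kept 3983987 counts against 153699 to 585491 in the others.

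The 2 predicted entries called are named by their IDs. NovelmiRNA-91, which has the same counts as NovelmiRNA-324, stood at 876, 1122, 469, 619 and 1213 CPM in IMAT 1 to 5, against 0, 18.3, 0 and 4.51 CPM in VAT 1, 3, 4 and 5 (log2 fold change 7.23 ± 1.71, adjusted p = 0.034). NovelmiRNA-333 was listed at 0 in all IMAT libraries and stood at 8.33, 12.8, 3.81 and 3.69 CPM in VAT 1, 3, 4 and 5, at least 13.3-fold lower in IMAT by the same floor (adjusted p = 0.038). Like miR-135a-5p, it passed the filter only through VAT. NovelmiRNA-91 passed it only through IMAT, where it is high, so neither call is separate support for a difference. Neither is stable to the choice of libraries: the call of NovelmiRNA-91 was lost without IMAT 1, 2, 3 or 4 or VAT 1 or 5 (adjusted p = 0.056 to 0.098), and that of NovelmiRNA-333 without IMAT 1, 2, 3, 4 or 5 or VAT 1, 3 or 5 (adjusted p = 0.0502 to 0.12).

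The most abundant miRNAs were otherwise not called. miR-22a-3p, known from lipid metabolism, stood at 37941 to 53814 CPM in IMAT, against 49027 to 162857 CPM in VAT (log2 fold change -1.16 ± 0.38, adjusted p = 0.12). let-7a-5p gave -0.45 ± 0.43 (adjusted p = 0.54), let-7e-5p -1.30 ± 0.67 (adjusted p = 0.30) and miR-126-3p 0.17 ± 0.48 (adjusted p = 0.83). None of the 10 let-7 entries was called, against 7.26% of all entries, and their median, -0.14, lay above that of all entries. A missed call here does not show equal levels, since the SE of these miRNAs was 0.38 to 0.67 on the log2 scale.

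Other lists of tissue and cell markers had no call, against 7.26% of all entries. At that share the lack of a call in lists this small is no result about their members. Of gut and liver, 3 entries were tested, with a median of -2.15 and sums of 105 to 394 CPM in IMAT, against 556 to 1106 CPM in VAT. Among these the liver miRNA miR-122-5p stood at 48.5, 92.7, 198, 103.2 and 15.4 CPM in IMAT 1 to 5, against 436, 288, 849 and 487 CPM in VAT 1, 3, 4 and 5. Every IMAT library lay below every VAT library, but the log2 fold change was -2.50 ± 0.71 (SE, adjusted p = 0.064) and missed the threshold. The pancreas list (5 entries) summed to 206.4 to 1280.4 CPM in IMAT, against 659 to 4645 CPM in VAT and was led by miR-7a-5p, at -1.60 ± 1.19 (adjusted p = 0.42) with VAT 5 alone high. miR-7a-5p was listed at 0 in IMAT 4, beyond counting error, against 377 to 1083 CPM in the other IMAT libraries. The sum of IMAT 4, the lowest of IMAT, therefore lacks it. The stroma list (5 entries, with miR-199a-3p the most abundant and without a call) summed to 62640.3 to 86886 CPM in IMAT, against 35926 to 78975 CPM in VAT. The higher of the 2 entries of the red blood cell list, both of miR-144, reached at most 30.7 CPM in IMAT and 21.8 CPM in VAT, and the endothelial list was miR-126-3p alone. These levels moved with the depots as given, and their part in the calls was not tested.

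The same holds for the remaining lists, none of which had a call, against 7.26% of all entries. At that share the lack of a call is no result about their members. Lipid and insulin metabolism (15 entries) had a median of -0.70, miR-17-92 and its paralogs (14 entries) of -1.11, and the miR-130 and miR-301 family (9 entries) of -0.61, against -0.60 over all entries. miR-92a-3p gave -1.18 ± 1.74 (adjusted p = 0.67) and miR-130a-5p -1.62 ± 0.68 (adjusted p = 0.23), each with VAT 4 far above the other VAT libraries. miR-92a-3p was also listed at 0 in IMAT 1 and IMAT 4, against 2786 to 7257 CPM in the other IMAT libraries. These zeros lie beyond counting error, so its value is uncertain. No entry of a further list, of other miRNAs known from muscle, passed the filter on low values, so muscle could be followed only through the removed entries.

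Without IMAT 5 and VAT 4, 28 further entries were called, 16 higher and 12 lower, of which 24 were named (15 higher, 9 lower). Among IMAT libraries, NovelmiRNA-34, NovelmiRNA-359 and NovelmiRNA-431 were above 0 only in IMAT 5. NovelmiRNA-371 was above 0 in VAT only in VAT 4. Leaving these libraries out set a whole depot to 0, so these predicted calls are no support. Entries of near-equal counts, such as miR-30c-5p and miR-30c-3p or miR-338a and miR-338a-3-3p, are counted separately. let-7b-5p and let-7c-5p were higher at 1.79 ± 0.24 (adjusted p = 0.0040) and 1.87 ± 0.27 (adjusted p = 0.0049), where all 9 libraries gave 0.94 and 1.12, while let-7e-5p was lower at -1.37 ± 0.30 (adjusted p = 0.025). Of the cluster that holds miR-27b, miR-23b-3p was higher at 3.19 ± 0.42 (adjusted p = 0.0038). miR-23a-3p was higher at 1.73 ± 0.31 (adjusted p = 0.014), with miR-23a-3-3p an entry of nearly the same counts. The liver and gut miRNAs miR-122-5p and miR-194a-5p were lower at -1.87 ± 0.50 (adjusted p = 0.046) and -2.12 ± 0.57 (adjusted p = 0.046). miR-30c-5p, which promotes fat cell formation in mammals, was higher at 0.94 ± 0.22 (adjusted p = 0.031), although all 9 libraries gave -0.57: it stood at 2293, 2461, 2567, 2511 and 6234 CPM in IMAT 1 to 5, against 1396, 994, 15207 and 1453 CPM in VAT 1, 3, 4 and 5, so that of the VAT libraries VAT 4 alone lay above IMAT. Since the libraries left out were chosen for standing apart, these values are a description of the remaining 7 libraries.

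**Figure D5:**
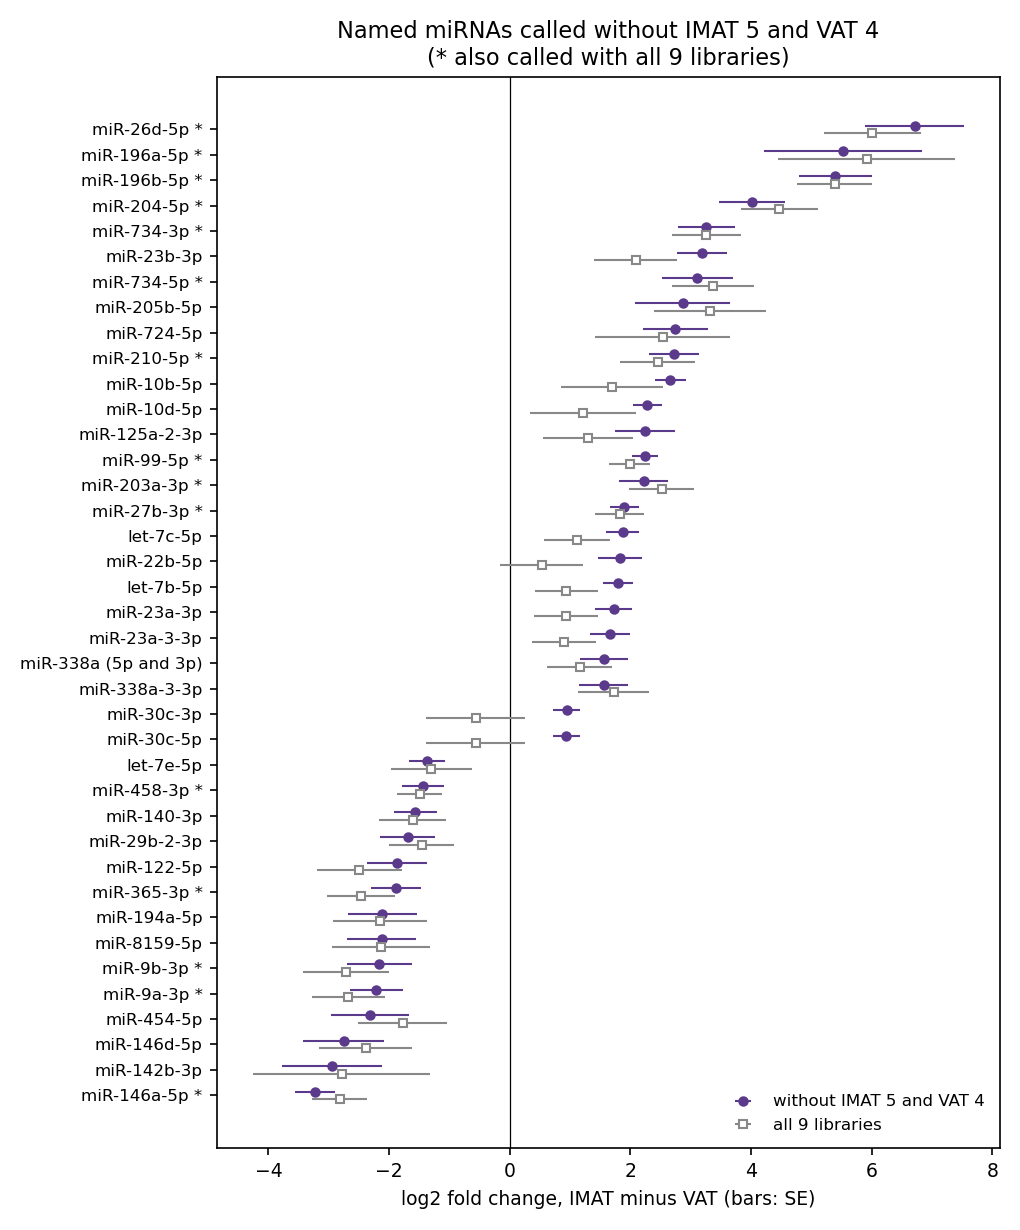
Log2 fold change (IMAT minus VAT, bars SE) of the named miRNAs called without IMAT 5 and VAT 4, from that fit (filled circles) and from all 9 libraries (open squares), with a star at those called in both. miR-135a-5p, listed at 0 in IMAT, is left out of the plot. miR-10b-5p moves to 2.66 from 1.69 and miR-30c-5p to 0.94 from -0.57 when the 2 libraries are left out, while miR-146a-5p stays near its value.

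Set beside subcutaneous fat, on levels scaled over all 14 libraries, the called miRNAs took different places (mean ± SD, n = 5, 5 and 4). miR-26d-5p averaged 5243 ± 2459.6 CPM in IMAT, 193.4 ± 72.3 CPM in SAT and 72.0 ± 53.6 CPM in VAT. miR-196b-5p averaged 224 ± 102 CPM in IMAT, 71.3 ± 17.6 CPM in SAT and 4.85 ± 1.46 CPM in VAT. In these, SAT lay between the other depots, and for miR-26d-5p near VAT. miR-204-5p averaged 468 ± 209.6 CPM in IMAT, 890.3 ± 391 CPM in SAT and 19.6 ± 14.5 CPM in VAT. miR-99-5p averaged 10085 ± 1512 CPM in IMAT, 23781 ± 4326 CPM in SAT and 2248 ± 408 CPM in VAT. For both the SAT mean was the highest of the 3 depots. miR-146a-5p averaged 64609.7 ± 24160.3 CPM in IMAT, 100741 ± 24060.4 CPM in SAT and 417362 ± 212858 CPM in VAT. miR-365-3p averaged 1925 ± 613 CPM in IMAT, 7437 ± 3083 CPM in SAT and 9087 ± 6650.4 CPM in VAT. SAT was thus near IMAT for miR-146a-5p and near VAT for miR-365-3p. Differences from SAT were not tested here.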

How the data were processed

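Small RNA libraries were made and sequenced by a company, per the labels' protocols. What the authors deposited is a table of unscaled whole-number counts of reads, 1 value per miRNA entry and library. Of its columns, 2 with per-sample values match no sample label and were left aside. Per the submitters' processing notes, the tools included Trimmomatic 0.30 and edgeR 3.4.6, for which no role is given. No aligner, miRNA caller or genome build is named in the sources used here, so no coordinates or sequences are reported.

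Entries above 0 in at least 4 of the 9 libraries were tested in edgeR 4.0.16 (R 4.3.3) by its quasi-likelihood test after TMM scaling, two-sided, adjusted by Benjamini-Hochberg over all 248 entries with a threshold of 0.05. Log2 fold changes are IMAT minus VAT. Of the tested entries, 31 stand for sets of identical rows (68 rows), so that arms or copies cannot be told apart. For 64 entries (34 named) a zero in at least 1 library lies beyond counting error, meaning that the lowest level above 0 in the depot would give at least 20 reads there. Library-level values (composition, detection, predicted share) were compared by exact permutation (SciPy 1.17.1). The fits were tested on simulated counts. Alternatives were median-ratio, library-total and TMMwsp scaling, DESeq2 1.42.0, limma 3.58.1 on log2(CPM + 1), other filters, other readings of identical rows, muscle entries kept, all 14 libraries in the fit, a replicate block and leaving out each library. Keeping miR-1338 and leaving out IMAT 5 with VAT 4 were added after seeing the data.

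Named in the text by rule were the called named miRNAs of at least median level with the largest changes (up to 15 a direction), the 8 most abundant, and up to 3 called members, or else the most abundant, of each list of miRNAs. Other members of a family are given beside them. The comparison, the members and the lists were chosen with earlier results of these data known.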

Additional observations from a re-analysis of the deposited data

Results flagged for a closer look

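In 14 of 70 depot groups examined, those of 32 miRNA entries and 3 library-level values in each of 2 depots, 1 library lay far from the nearest other library of its depot, given the depot's range. Chance alone would flag about 5% of groups if the values were normally distributed. The CPM used here were not log-transformed and need not be, and groups of abundant miRNAs share libraries. IMAT 5 was the library in 5 cases and VAT 4 in 5. IMAT 5 was high in miR-10b-5p (122740 CPM, next 43243), let-7e-5p (86304, next 22102), miR-100a-5p (167144, next 100781) and miR-130a-5p (372, next 253), and low in miR-199a-3p (7995, next 30449.8). VAT 4 was high in miR-10b-5p (47763 CPM, next 6664), miR-92a-3p (16314, next 2893), miR-130a-5p (2290.4, next 428.97) and miR-9a-3p (327, next 118), and low in miR-135a-5p (7.14, next 15.2). VAT 5 was high in miR-21b-5p (511789 CPM, next 86325) and miR-7a-5p (3903, next 781). IMAT 2 was high in miR-26d-5p (9485 CPM, next 4742) and VAT 3 in miR-204-5p (40.3 CPM, next 16.9). For miR-26d-5p, miR-204-5p and miR-9a-3p the library that stood apart did not bring the depots into overlap.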

How the results depend on the processing

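Counts of calls are given as all (higher, lower), against 18 (11, 7) as reported. Median-ratio and TMMwsp scaling gave 18 (11, 7) each and library totals 18 (16, 2). DESeq2 gave 38 (16, 22), limma 25 (13, 12), no filter on low values 5 (4, 1) of 531 tested, a stricter filter 14 (10, 4), leaving out entries with zeros beyond counting error 22 (14, 8), and all 14 libraries in the fit 27 (17, 10). Muscle entries kept gave 17 (12, 5), identical rows kept apart 20 (13, 7), near-identical rows joined 18 (11, 7), and miR-1338 kept 16 (11, 5). Leaving out 1 library gave 7 to 29 (5 to 21, 1 to 14), and leaving out IMAT 5 with VAT 4 gave 46 (27, 19). The labels do not say whether equal replicate numbers mark the same fish. Over the 248 entries tested, r of same-numbered deviations was 0.18, 0.09, -0.01 and -0.07, which cannot decide it. With the replicate block over 8 libraries, without IMAT 2, 1 call (1, 0) was left, miR-26d-5p, with 34 at an unadjusted edgeR p under 0.05. The same 8 libraries without the block gave 9 calls and 50 at that p, and all 9 libraries gave 47. With muscle entries kept, the difference in predicted share was -0.82 percentage points (adjusted p = 0.024) and in the share of the 10 most abundant 6.69 (adjusted p = 0.079), both reversed in sign, and the cause was not tested. Leaving out 1 library, detection differed by -41.4 (without IMAT 4, where the common depth also rose to 383800 reads) to -26.9 entries and the share of the 10 most abundant by -13.8 to -9.52 percentage points. Signs of uncalled miRNAs turned for miR-100a-5p (library totals 0.55, limma 0.17, replicate block 0.12, without VAT 4 0.78, without IMAT 5 and VAT 4 0.46), let-7a-5p (library totals 0.42, without VAT 4 0.13), miR-144-5p (library totals 0.36), miR-126-3p (without VAT 4 -0.031, without VAT 5 -0.017) and miR-92a-3p (without VAT 4 0.044), and the cause was not tested. With 1 library left out these ran from -0.71 to 0.78, -0.70 to 0.13, -0.031 to 0.58 and -2.06 to 0.044 for miR-100a-5p, let-7a-5p, miR-126-3p and miR-92a-3p. Depth limits low miRNAs in IMAT, where IMAT 4 kept 153699 counts.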

Other observations

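Of the 248 entries tested, 38 (15.3%) had levels that did not overlap between the depots, 19 higher in IMAT and 19 lower. Besides the called miRNAs, 20 of these missed the threshold, 15 of them named (7 higher in IMAT, 8 lower). Among the higher ones miR-23b-3p, of the miR-27b cluster, stood at 498, 475, 265, 279 and 338 CPM in IMAT 1 to 5, against 53.7, 38.6, 225 and 32.8 CPM in VAT 1, 3, 4 and 5 (log2 fold change 2.08 ± 0.69, adjusted p = 0.12). miR-338a-3-3p stood at 33.9 to 61.3 CPM in IMAT, against 5.71 to 17.8 CPM in VAT (log2 fold change 1.72 ± 0.59, adjusted p = 0.13). Among the lower ones miR-21a-5p, a paralog of miR-21b-5p, stood at 22019, 22319.7, 21339, 18521 and 21279 CPM in IMAT 1 to 5, against 33996, 24195, 25657 and 72615 CPM in VAT 1, 3, 4 and 5 (log2 fold change -0.89 ± 0.38, adjusted p = 0.24). The liver and gut miRNA miR-192a-5p ran from 54.9 to 173 CPM in IMAT, against 225 to 426 CPM in VAT (log2 fold change -1.47 ± 0.49, adjusted p = 0.12), and miR-15c-5p, of the miR-15 family that restrains the cell cycle, from 59.96 to 128.95 CPM in IMAT, against 131 to 495 CPM in VAT (log2 fold change -1.39 ± 0.52, adjusted p = 0.16). These were named after their values were seen.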
